A study of Mus musculus with 18 samples.

Results

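The livers of male mice that ate a high-fat diet were compared with those of male mice that ate a low-fat diet, with no compound given to either group. The 6 control livers were taken by their titles, which name a diet and no compound, out of 18 livers in the series. All were C57BL6 mice, and the diets held 10% (low-fat) or 45% (high-fat) of their energy as fat. Feeding was free and lasted 12 weeks, which took the mice from an age of 6 weeks to 18 weeks. Each group had 3 biological replicates with 1 gene expression array each, called low-fat 1 to 3 and high-fat 1 to 3 below. The other 12 livers came from mice of the same strain, sex and diets that also received PFOS (perfluorooctane sulfonic acid) or PFNA (perfluorononanoic acid), at doses not given in the labels. They entered here as the other groups of the statistical fit and as separate measurements of the same diet difference.

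The liver takes up dietary fat, stores it as triglyceride in lipid droplets, burns it in mitochondria and peroxisomes, and exports it in lipoproteins. Cholesterol is made in the liver through the mevalonate pathway, and the genes of its enzymes are switched together by SREBP2, a transcription factor released from the endoplasmic reticulum when sterols are low. Mouse liver also differs between the sexes, because the pattern of growth hormone release sets many cytochrome P450 genes, and it secretes acute phase proteins when it receives inflammatory signals.

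Values are deposited log2 signals, and differences are high-fat minus low-fat in log2 units, so that 1 unit is a 2-fold difference. The base of the logarithm is not named in the labels and was read from the range of the values (0.91 to 14.01). The median signal of the 6 control arrays lay between 4.48 and 4.59. Correlations of 2 arrays over all 34472 probes lay between 0.9839 and 0.9883 within a diet and between 0.9820 and 0.9882 across diets, so the diets did not separate the whole profile. Alb (albumin), the defining hepatocyte product, lay between 13.89 and 13.95 on all 6 arrays. Adipoq, a defining fat cell gene, lay between 2.11 and 2.40, below the array medians.

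Of 34472 probes, 1 (0.0029%) passed the adjusted threshold of 0.05, which is 0.00451% of the 22180 genes they cover. At an unadjusted p under 0.05 the count was 2222 probes (6.45%), of which 1105 were higher (3.21%) and 1117 lower (3.24%) on the high-fat diet. Centring each array on its median made that split 1340 higher and 805 lower. The probe that passed measures 5730420D15Rik, a gene model without an assigned function. Its signal was 5.33, 5.66 and 5.28 on the low-fat arrays and 4.51, 4.27 and 4.20 on the high-fat arrays, with no overlap between the diets. It fell by 1.10 (SE 0.15, adjusted p = 0.0295). The call was lost without low-fat 1, low-fat 2, high-fat 2 or high-fat 3, where the adjusted p was 0.134, 0.344, 0.0819 and 0.194. No other gene below passed the adjusted threshold in the fit to all 18 arrays, and the words higher and lower describe the measured values.

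The spread used by that fit comes from all 6 groups. Fitted to the 6 control arrays alone, 8 of 34472 probes (0.0232%) passed, and 5 of them measure enzymes of cholesterol synthesis, namely Sqle, Cyp51, Fdps, Hmgcs1 and Msmo1. The other 3 were Igfbp2 and Smad9, both lower, and a probe without a single gene. For Sqle the standard error was 0.16 in this fit and 0.38 in the fit to all arrays. For 5730420D15Rik the adjusted p was 0.202 in the fit to the controls alone.

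Cholesterol synthesis was the group of genes that separated the diets most evenly from animal to animal. Of 16 measured enzymes, 15 were higher on the high-fat diet. In 10 of the 16, all 3 high-fat arrays lay above all 3 low-fat arrays, against 5.07% of 22180 genes. Of the 16, 8 were higher at an unadjusted p under 0.05 and 0 were lower, against 3.37% and 3.16% of all genes. Among the 7691 genes with a mean signal of 6 or more these shares were 4.07% and 1.98%, and 6.62% lay wholly above and 5.4% wholly below. The median difference of the list was 0.40, beside −0.00 over all genes. The mean signal of the list was 7.21, 7.22 and 7.14 in the low-fat livers and 7.96, 7.87 and 7.92 in the high-fat livers. Its members at an unadjusted p under 0.05 numbered 5 without low-fat 1 and between 7 and 9 without any other control array.

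The first committed steps condense acetyl units to mevalonate and isoprenoids. Hmgcs1, the cytosolic HMG-CoA synthase, had signals of 8.31, 8.10 and 8.51 on low fat and 9.81, 9.52 and 9.74 on high fat. The lowest high-fat liver thus lay above the highest low-fat liver, and the difference was 1.38 (SE 0.40, adjusted p = 0.573). Fdps, which makes farnesyl pyrophosphate, had 6.08, 6.39 and 6.30 on low fat and 7.59, 7.55 and 7.58 on high fat. Its high-fat values were nearly the same in the 3 animals, and its difference was 1.32 (SE 0.52, adjusted p = 0.747). Between these steps the differences were smaller. Mvk (mevalonate kinase) differed by 0.41, Pmvk (phosphomevalonate kinase) by 0.39 and Mvd (mevalonate decarboxylase) by 0.14, and the diets overlapped in each.

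From farnesyl pyrophosphate the pathway turns to sterols. Fdft1, the squalene synthase, differed by 0.29 with touching groups, at 9.44, 9.38 and 8.98 on low fat and 9.68, 9.54 and 9.44 on high fat. Sqle, the squalene epoxidase that makes the first oxygenated intermediate, had 4.91, 5.02 and 4.6 on low fat and 6.66, 6.68 and 6.92 on high fat. This was the largest difference in the pathway, at 1.91 (SE 0.38, adjusted p = 0.288), a fold of 3.76. Lss, which closes the ring to lanosterol, differed by 0.58 with no overlap.

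Demethylation of lanosterol showed the next large differences. Cyp51, the lanosterol demethylase, had 5.98, 6.01 and 5.75 on low fat and 7.24, 7.28 and 7.35 on high fat, a difference of 1.38 (SE 0.40, adjusted p = 0.573). Msmo1, the sterol methyl oxidase, had 6.11, 6.29 and 5.59 on low fat and 7.66, 7.58 and 7.57 on high fat, a difference of 1.61 (SE 0.34, adjusted p = 0.313). Nsdhl, which removes the oxidised carbon, had 6.69, 6.27 and 6.92 on low fat and 8.08, 7.80 and 7.65 on high fat, a difference of 1.22 (SE 0.35, adjusted p = 0.573). These 3 genes, Cyp51, Msmo1 and Nsdhl, thus had no overlap between the diets. The remaining measured genes after Lss differed less, and not all of them act later than these 3. Hsd17b7 differed by 0.25, Sc5d by 0.25 and Dhcr7 by 0.35, each without overlap, while Tm7sf2 (0.18) and Ebp (−0.02) overlapped.

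**Figure D1:**
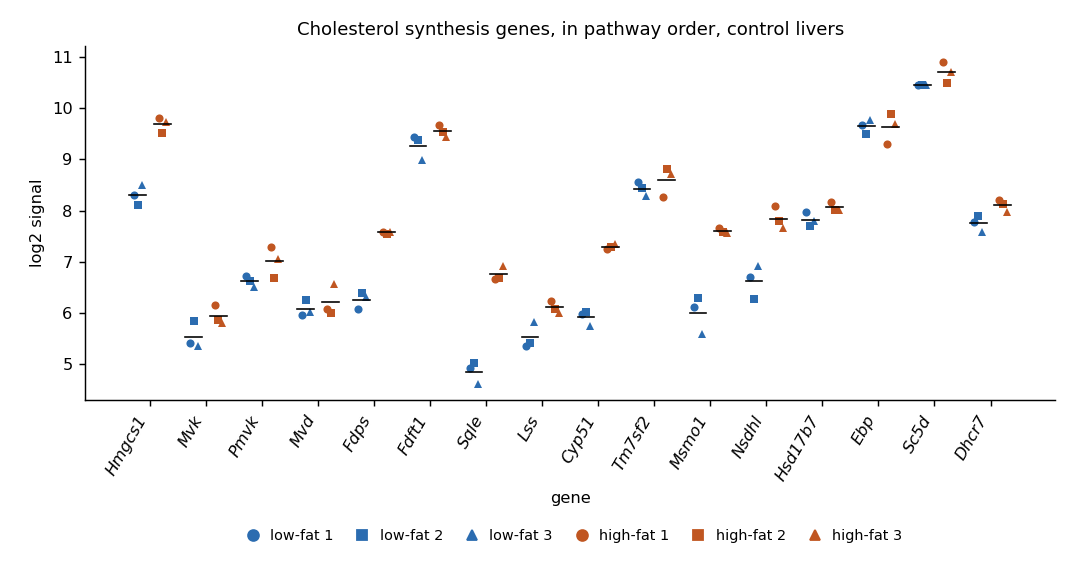
Log2 signal (y axis) of the 16 measured cholesterol synthesis genes (x axis, in pathway order) in each control liver, with low-fat livers in blue, high-fat livers in orange, 1 marker shape per replicate number and black lines for group means. In 10 genes the 3 orange points all lie above the 3 blue points, with the widest gap in Sqle (means 4.84 and 6.75).

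Genes that sense and take up sterols moved less as a list. Of 12 measured members, 4 had all high-fat arrays above all low-fat arrays and 0 had them below, against 5.07% and 5.76% of all genes. The median difference was 0.10. Insig1, a SREBP2 target that holds the precursor in the endoplasmic reticulum, had 9.21, 8.67 and 8.93 on low fat and 9.96, 10.18 and 9.80 on high fat. Its difference was 1.04 (SE 0.30, adjusted p = 0.573). Srebf2, which encodes SREBP2, differed by 0.42 (SE 0.14), with 7.47, 7.68 and 7.29 against 8.12, 7.87 and 7.72. Tmem97 (0.46) and Stard4 (0.52), both known sterol-regulated genes, were the other members without overlap. Abcg5, a subunit of the sterol exporter of the bile canaliculus and a target of the oxysterol receptor LXR, had the opposite sign. It had 9.53, 9.57 and 9.53 on low fat and 9.10, 8.83 and 9.31 on high fat, a difference of −0.46 (SE 0.16, adjusted p = 0.684), and was the 1 of 9 LXR targets at an unadjusted p under 0.05.

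SREBP2 is known to bind sterol response elements beside CCAAT boxes, which bind the factor NF-Y, so the promoters of these genes were searched for both. The sterol response element was searched as TCACNCCA and the CCAAT box as CCAAT, on both strands, in the 250 bases before each start site in RefSeq (GRCm38.p6). The letters of 1 motif do not contain the other. TCACNCCA was found in 3.67% of 32851 windows and CCAAT in 33.8%. Windows were given for 13 of the 16 cholesterol genes and 9 of the 12 sterol sensing genes. CCAAT was in 13 of the 16 windows of the 13 cholesterol genes (81.2%), covering each of the 13 genes, and in 7 of the 14 windows (50%) of the sterol sensing genes. TCACNCCA was in 2 cholesterol genes, Hmgcs1 and Msmo1, and in 1 sterol sensing gene, Srebf2. The stretch from 20 bases before that match onward is printed for these 3 genes, because their windows hold both motifs and their diets did not overlap. Capitals mark both motifs, which read in reverse complement where they lie on the opposite strand, and letters run 5′ to 3′ on the gene's strand.
Hmgcs1, chr13:119690194-119690330, + strand: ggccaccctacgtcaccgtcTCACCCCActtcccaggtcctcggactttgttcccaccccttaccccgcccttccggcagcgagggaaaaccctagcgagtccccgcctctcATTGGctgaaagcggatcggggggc
Msmo1, chr8:64733609-64733775, − strand: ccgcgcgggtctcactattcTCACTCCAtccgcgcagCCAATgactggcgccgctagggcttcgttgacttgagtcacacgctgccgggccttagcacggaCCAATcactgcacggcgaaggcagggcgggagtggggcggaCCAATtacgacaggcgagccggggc
Srebf2, chr15:82147087-82147158, + strand: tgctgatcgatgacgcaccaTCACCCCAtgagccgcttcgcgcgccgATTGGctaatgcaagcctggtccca
The match began 137 bases before the start site in Hmgcs1, 177 in Msmo1 and 162 in Srebf2. Within the stretch shown, Msmo1 held 3 CCAAT boxes, and Hmgcs1 and Srebf2 held 1 each. Over the whole 250 bases Hmgcs1 also held 3, since its other boxes lie upstream of the stretch. A match describes the letters in the window and does not show binding.

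The genes of fat handling did not move as 1 group. Among 23 measured genes of fatty acid and triglyceride synthesis, 4 had all high-fat arrays above the low-fat arrays and 1 had them below. Over all genes these shares were 5.07% and 5.76%, and the median difference of the list was 0.08. Gpam, which starts glycerolipid synthesis, had 9.77, 9.59 and 10.02 on low fat and 10.32, 10.09 and 10.31 on high fat (difference 0.45, SE 0.20). Fads2, the delta-6 desaturase of polyunsaturated fatty acids, had the opposite sign, with 12.29, 12.38 and 12.32 on low fat and 12.15, 11.80 and 11.89 on high fat (difference −0.38, SE 0.15). Both were free of overlap, and the adjusted p was 0.767 for Gpam and 0.757 for Fads2. Fasn, the fatty acid synthase, had 8.05, 7.69 and 8.13 on low fat and 9.33, 8.51 and 8.49 on high fat, also without overlap, with a difference of 0.82 (SE 0.50). Mid1ip1, an activator of acetyl-CoA carboxylase, differed by 0.41 (SE 0.19) on its brightest probe, without overlap, and by −0.17 on a dimmer one. Thrsp, a lipogenic gene, differed by 0.78 (SE 0.39) and Lpin1, a phosphatidate phosphatase, by 0.61 (SE 0.32), and the diets overlapped in both.

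Of 15 uptake and binding genes, 3 had all high-fat arrays above the low-fat arrays, Cd36 among them, and 1 had them below. Over all genes these shares were 5.07% and 5.76%. Cd36, the fatty acid translocase, had 8.97, 9.72 and 9.45 on low fat and 10.48, 10.04 and 10.67 on high fat. All 3 high-fat livers were higher, by a mean of 1.02 (SE 0.31, adjusted p = 0.595). It was the 1 of 15 uptake and binding genes at an unadjusted p under 0.05, and the median of that list was 0.03. Among 17 lipid droplet and lipase genes, 9 had a positive and 8 a negative difference, with a median of 0.05. In 3 of the 17 all high-fat arrays lay above the low-fat arrays, and in 1 they lay below. Of these genes, Plin4, a droplet coat protein, had 7.01, 6.97 and 6.88 against 8.14, 8.11 and 7.62, a difference of 1.0 (SE 0.43). Fitm1, which helps droplets form, had a difference of 0.56 (SE 0.21) on its brightest probe and −0.25 on a dimmer one. Pparg, the nuclear receptor that drives fat storage, had 6.03, 6.03 and 6.31 against 7.29, 6.84 and 6.86, a difference of 0.87 (SE 0.33, adjusted p = 0.706).

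Fat burning was close to level. Of 16 mitochondrial fatty acid oxidation genes, 0 passed an unadjusted p of 0.05, and the median was −0.07. In 2 of the 16 all high-fat arrays lay below the low-fat arrays, against 5.76% of all genes. Cpt1a, the gate of mitochondrial fatty acid entry, had 11.67, 11.77 and 11.69 on low fat and 11.63, 11.38 and 11.34 on high fat, a difference of −0.26 (SE 0.14). Among 14 PPARA targets, whose receptor senses fatty acids, the median was −0.02 and the 2 members without overlap were lower. These were Cyp4a14 (−0.29, SE 0.13) and Acot1 (−0.77, SE 0.37). In the 15 peroxisomal genes the median was −0.05. Abcd2, a peroxisomal fatty acid carrier, had the largest positive difference there, at 1.07 (SE 0.41), with 7.30, 7.42 and 8.54 against 9.13, 8.47 and 8.87. Low-fat 3 overlapped with the high-fat livers.

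Among lipoprotein genes, Apoa5, which speeds the clearance of triglyceride, was the 1 of 14 at an unadjusted p under 0.05. It had 11.09, 11.26 and 10.68 on low fat and 10.54, 10.18 and 10.35 on high fat, with no overlap and a difference of −0.65 (SE 0.19, adjusted p = 0.584). The list median was −0.03.

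Genes known to be higher in male liver were lower on the high-fat diet. Of 17 measured, 15 had a negative difference, and 9 had all high-fat arrays below all low-fat arrays against 5.76% of all genes. At an unadjusted p under 0.05, 7 were lower, against 3.16% of all genes. The list mean was 9.73, 9.42 and 9.17 in the low-fat livers and 8.77, 9.01 and 8.95 in the high-fat livers. The median difference was −0.44, and it lay between −0.34 and −0.58 when any 1 control array was left out. Without low-fat 1 or high-fat 1, 4 of the 17 were at an unadjusted p under 0.05. Low-fat 1 held the highest value of 12 of the 17 genes.

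Cyp4a12b, a fatty acid hydroxylase with higher expression in males, had 10.21, 10.65 and 9.87 on low fat and 9.05, 9.33 and 8.62 on high fat. Its difference was −1.24 (SE 0.19, adjusted p = 0.0652), the closest of all genes below the called one. Its near copy Cyp4a12a had −0.44 (SE 0.14), and probes for such close copies can share signal. Moxd1, a monooxygenase-like gene, had 6.89, 6.01 and 4.11 against 3.39, 4.05 and 3.26, a difference of −2.10 (SE 0.59). The low-fat livers were widely spread, and low-fat 3 lay only just above high-fat 2. Susd4, a complement regulator, differed by −0.66 (SE 0.23), with 7.71, 7.89 and 7.70 against 6.69, 7.37 and 7.27. Ugt2b38, a glucuronosyltransferase, differed by −0.94 (SE 0.33) with overlap and signals below the array medians. Cyp7b1, an oxysterol hydroxylase, also differed by −0.66 (SE 0.29).

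Female-predominant genes did not mirror this as a list. Their median was 0.04 over 15 genes. At an unadjusted p under 0.05, 3 were higher and 2 lower, against 3.37% and 3.16% of all genes. Without high-fat 1, 1 was higher, and between 0 and 1 were lower without any single array other than low-fat 3. Among 16 targets of the receptors CAR and PXR, which switch drug metabolism, 3 were higher and 0 lower, with a median of −0.04, and 1 was higher without high-fat 1 and 2 without low-fat 2, low-fat 3 or high-fat 3. Cyp2b9, a P450 that is higher in females and is also counted among targets of CAR, had a difference of 2.60 (SE 0.41, adjusted p = 0.0912), a fold of 6.08 and the largest among the 24 genes of the rule for large differences. It had 7.93, 9.35 and 10.07 on low fat and 11.68, 11.52 and 11.96 on high fat, so the high-fat livers were alike and the low-fat livers widely spread, with low-fat 1 lowest. Its adjusted p was 0.0171 without low-fat 3, but between 0.138 and 0.372 without any other single control array. In the fit to the controls alone it was 0.246. Cyp2b13, a close copy, had 4.0, 3.98 and 3.45 against 7.11, 5.24 and 6.97, a difference of 2.63 (SE 1.0). Its low-fat values lay below the array medians. Cyp2b9 and Cyp2b13 stand in both lists, so each is counted as higher in the female-predominant and in the CAR and PXR list. Cyp17a1, a steroid hydroxylase, had the opposite sign at −0.93 (SE 0.31), with 8.37, 8.49 and 8.81 against 8.52, 7.15 and 7.20, where high-fat 1 lay within the low-fat range.

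Acute phase genes were higher on the high-fat diet. Of 21 measured, 20 had a positive difference, 12 had all high-fat arrays above all low-fat arrays, and 8 were higher at an unadjusted p under 0.05, while 0 were lower. Over all genes 5.07% lay wholly above, and 3.37% were higher and 3.16% lower at that p. The list mean was 9.25, 9.61 and 9.76 in the low-fat livers and 10.07, 10.52 and 10.10 in the high-fat livers, with a median difference of 0.37. The animals differed within each diet. High-fat 2 held the highest value in 18 of the 21 genes, and low-fat 1 held the lowest in 11. Without high-fat 2 the median was 0.23, and without high-fat 2 or low-fat 1 the members at an unadjusted p under 0.05 numbered 5.

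Lcn2 (lipocalin 2, which binds bacterial iron carriers) had 6.06, 7.75 and 7.94 on low fat and 9.25, 10.10 and 8.91 on high fat, a difference of 2.17 (SE 0.69, adjusted p = 0.679). Saa2 (serum amyloid A) had 7.05, 8.07 and 8.63 against 9.65, 10.73 and 9.77, a difference of 2.13 (SE 0.84, adjusted p = 0.739). In both genes low-fat 1 stood more than 1 unit below the next lowest array. The orosomucoid genes, which encode plasma carrier proteins, differed by 2.13 (Orm3), 1.80 (Orm2) and 0.42 (Orm1, named after its values were seen), and the probes of these close relatives may share signal. Steap4, a metal reductase, was more even, with 8.66, 8.73 and 8.89 against 9.47, 10.30 and 9.86 and a difference of 1.12 (SE 0.24, adjusted p = 0.313). Apcs (serum amyloid P) was similar, with 6.88, 6.82 and 7.26 against 8.27, 8.31 and 8.0 and a difference of 1.21 (SE 0.31, adjusted p = 0.458).

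Complement and coagulation genes, also made by hepatocytes, did not share this shift. Their median over 25 genes was −0.01, with 4 above and 3 below without overlap, against 5.07% and 5.76% of all genes. C8b, part of the membrane attack complex, was the 1 member at an unadjusted p under 0.05, with a difference of −0.60 (SE 0.27).

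**Figure D2:**
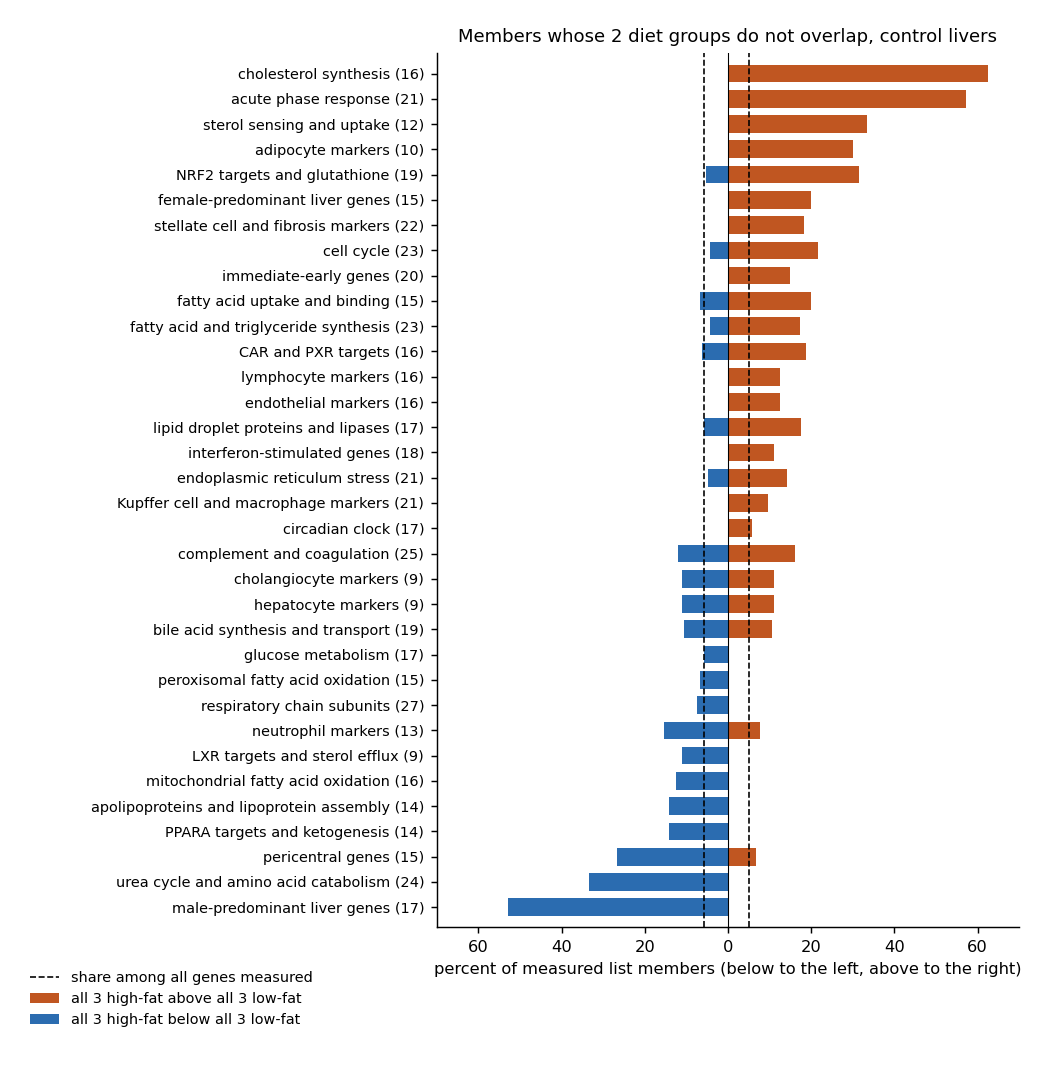
Share of the measured members of each gene list (rows, number measured in parentheses) whose 3 high-fat livers all lie above (orange, right) or below (blue, left) the 3 low-fat livers, in percent. Dashed lines give the share among all 22180 genes (5.07% above and 5.76% below), which the cholesterol synthesis, acute phase and male-predominant lists pass by the widest margins. Lists of fewer than 9 measured genes are not drawn.

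The remaining large differences belonged to several functions. Among the 12 genes most above the low-fat livers were Bcl6 (a transcriptional repressor, 1.58, SE 0.46), Lgals1 (galectin 1, 1.52, SE 0.46), Themis (known for T cell signalling, 1.49, SE 0.38) and Slc10a2 (the apical bile acid transporter, 1.40, SE 0.40). Themis had 4.51, 5.31 and 4.5 on low fat and 6.50, 6.13 and 6.16 on high fat, without overlap. In Bcl6 the diets overlapped, since low-fat 3 (6.84) lay above high-fat 3 (6.68). These 12 were taken from 101 genes that were higher at an unadjusted p under 0.01 with a mean signal of at least 6 in the higher group.

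Only 31 genes met the same rule in the lower direction. Igfbp2, an insulin-like growth factor binding protein of liver, had 11.12, 11.27 and 11.11 on low fat and 9.84, 9.80 and 9.95 on high fat. The animals within each diet were alike and the difference was −1.30 (SE 0.31, adjusted p = 0.404), and in the controls alone the adjusted p was 0.0287. Igf1 itself, chosen after its values were seen, had 10.67, 10.77 and 10.44 against 9.87, 10.31 and 10.17, a difference of −0.51 (SE 0.13). Smad9, a receptor-activated SMAD of bone morphogenetic protein signalling, had 6.50, 6.67 and 6.42 against 5.43, 5.21 and 5.35, a difference of −1.20 (SE 0.26, adjusted p = 0.313, or 0.0468 in the controls alone). The remaining members of the 12 were Cgref1 (−1.05, SE 0.34), Ces3b (a carboxylesterase, −0.81, SE 0.27) and Defa21 (a defensin, −0.68, SE 0.17), with Got1, Agxt and Gys2 described next.

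**Figure D3:**
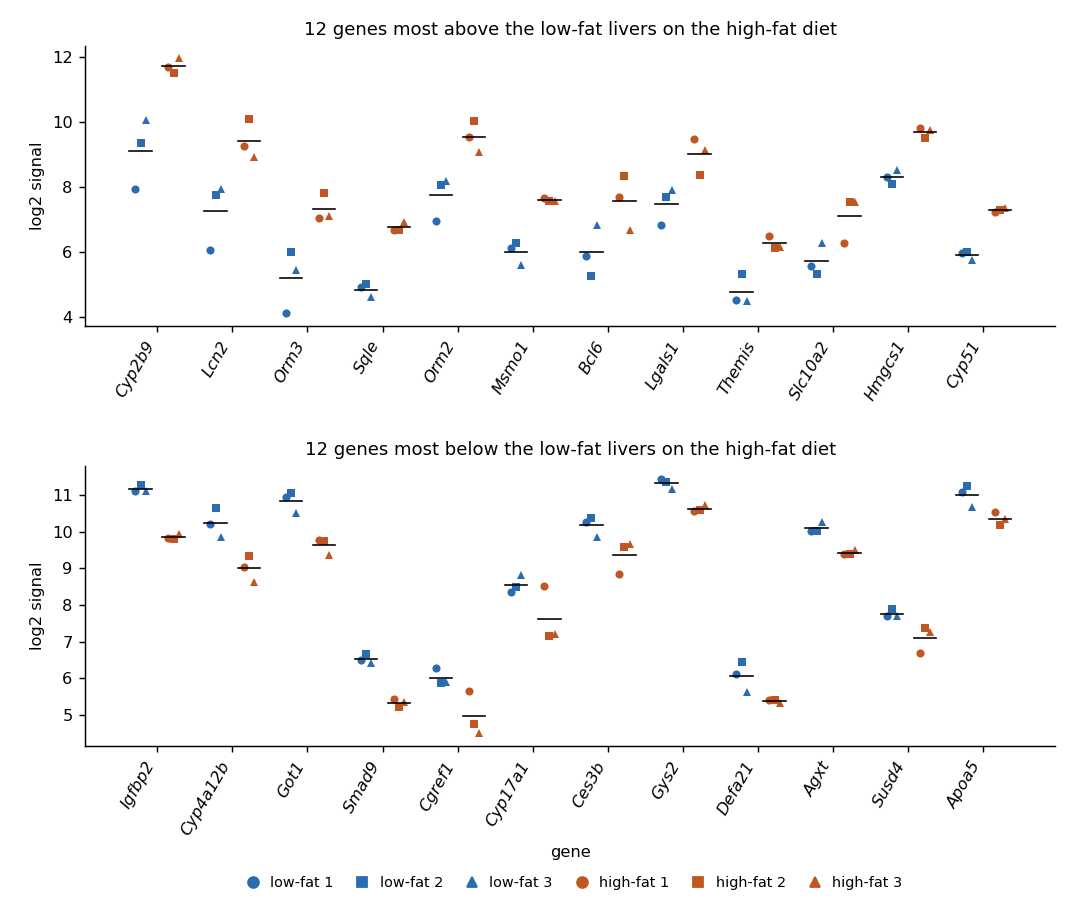
Log2 signal (y axis) in each control liver of the 12 genes with the largest positive and the 12 with the largest negative diet difference (x axis) among genes at an unadjusted p under 0.01 with a mean of at least 6 in the higher group. Low-fat livers are blue, high-fat livers orange, marker shapes give the replicate number and black lines the group means. Igfbp2, Gys2 and Agxt have tight groups far apart, while in Cyp2b9, Lcn2 and Orm3 low-fat 1 lies far below the other low-fat livers.

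Genes that break down amino acids were mostly lower on the high-fat diet. Of 24 measured, 19 had a negative difference, 8 had all high-fat arrays below all low-fat arrays and 0 had them above, and 4 were lower at an unadjusted p under 0.05. Over all genes these shares were 5.76% below, 5.07% above and 3.16% lower. The median was −0.18. Agxt, which detoxifies glyoxylate, had 10.03, 10.01 and 10.27 against 9.39, 9.40 and 9.50, a difference of −0.67 (SE 0.14, adjusted p = 0.313). Got1, the cytosolic aspartate aminotransferase, had 10.94, 11.06 and 10.52 against 9.77, 9.76 and 9.36, a difference of −1.21 (SE 0.32, adjusted p = 0.497). Hgd, of tyrosine breakdown, differed by −0.32 (SE 0.11), Cth, of cysteine synthesis, by −0.47 (SE 0.20) and Cps1, the first urea cycle enzyme, by −0.38 (SE 0.19). None of these 5 genes had overlapping diets. The list count was 3 at an unadjusted p under 0.05 without low-fat 1 or high-fat 1 and 4 or 5 without any other control array.

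In glucose metabolism, 3 of 17 genes were lower and 0 higher at an unadjusted p under 0.05, against 3.16% and 3.37% of all genes. The median was 0.06. The count lower was 1 without low-fat 2, high-fat 1 or high-fat 3. Gys2, the liver glycogen synthase, had 11.45, 11.37 and 11.16 on low fat and 10.56, 10.59 and 10.72 on high fat, a difference of −0.70 (SE 0.16, adjusted p = 0.363). G6pc, which releases glucose from its phosphate, also differed by −0.70 (SE 0.31), and Irs2, the insulin receptor substrate, by −0.41 (SE 0.19). In G6pc and Irs2 the diets overlapped.

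Of 19 measured antioxidant genes under NRF2, 8 were higher and 1 lower at an unadjusted p under 0.05, against 3.37% and 3.16% of all genes, and the median was 0.14. Ugdh, which makes UDP-glucuronate, had 9.66, 9.55 and 9.63 against 10.27, 10.36 and 10.60, a difference of 0.80 (SE 0.22, adjusted p = 0.556). Gsta4, a glutathione transferase, differed by 0.51 (SE 0.14), Nqo1, a quinone reductase, by 0.58 (SE 0.20) and Gclc, the rate-setting glutathione enzyme, by 0.40 (SE 0.15), all without overlap. Hmox1 (heme oxygenase) differed by 0.79 (SE 0.29), with high-fat 3 inside the low-fat range. Leaving out 1 control array gave 3 higher without high-fat 1, 4 without low-fat 1 and 5 without any other.

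Abcc3, the basolateral exporter of bile acids and glucuronides, had 9.83, 10.19 and 10.33 on low fat and 10.75, 10.61 and 10.67 on high fat. Its difference of 0.56 (SE 0.13, adjusted p = 0.388) was the best supported of 19 bile acid genes, whose median was −0.00.

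Stress and growth lists had positive medians, and their counts at an unadjusted p under 0.05 changed when single animals were left out. Of 21 endoplasmic reticulum stress genes, 19 had a positive difference, 5 were higher at an unadjusted p under 0.05, and the median was 0.36. In 3 of the 21 all high-fat arrays lay above all low-fat arrays and in 1 they lay below. Over all genes 5.07% lay wholly above and 5.76% below, and 3.37% were higher at that p. Atf3, a stress-induced transcription factor, had 5.35, 5.66 and 5.69 against 6.16, 5.59 and 6.41 (0.49, SE 0.19), where high-fat 2 lay within the low-fat range. Herpud1, of protein degradation at the endoplasmic reticulum, had 11.48, 11.10 and 11.70 against 11.66, 11.89 and 11.80 (0.36, SE 0.15). High-fat 2 held the highest value in 13 of the 21. The count at an unadjusted p under 0.05 was 10 without high-fat 1, 9 without low-fat 3, 2 without low-fat 1, and 1 without low-fat 2, high-fat 2 or high-fat 3. Of 23 cell cycle genes, 20 had a mean under 6, and 4 were higher at an unadjusted p under 0.05, or 2 without low-fat 1. Ccnb2 (cyclin B2) had 5.03, 5.15 and 5.03 against 5.79, 5.88 and 5.82 (0.76, SE 0.24). Mcm2, of the replicative helicase, had 4.95, 5.03 and 5.04 against 5.64, 5.60 and 5.47 (0.56, SE 0.18). Mki67, a proliferation marker, had 4.45, 4.73 and 5.26 against 5.72, 5.56 and 5.70 (0.85, SE 0.30). These 3 genes were free of overlap.

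Markers of other liver cells were also higher, and here 1 animal set much of the size. Whole tissue was measured, so more cells of a type and more RNA per cell cannot be told apart. All 22 stellate cell and fibrosis markers had a positive difference, with a median of 0.46. In 4 of the 22 all high-fat arrays lay above all low-fat arrays, against 5.07% of all genes. At an unadjusted p under 0.05, 9 were higher, against 3.37% of all genes. The list mean was 6.10, 6.15 and 6.28 on low fat and 7.11, 6.28 and 6.48 on high fat. High-fat 1 held the highest value in 20 of the 22, against 15.8% of all genes. Without high-fat 1 the median was 0.16 and 2 members were at an unadjusted p under 0.05, without low-fat 2 there were 5, without low-fat 1 there were 6, and without high-fat 2 there were 12.

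Sparc, a matrix glycoprotein, had 6.49, 6.57 and 6.98 on low fat and 7.83, 7.23 and 7.31 on high fat, a difference of 0.78 (SE 0.19, adjusted p = 0.404) with no overlap. Col3a1 had 5.92, 5.92 and 6.60 against 8.17, 6.40 and 7.22 (1.12, SE 0.35), and Col1a1, the main fibrillar collagen chain, had 5.83, 6.26 and 6.21 against 8.41, 6.22 and 6.85 (1.06, SE 0.35). In both collagens high-fat 2 lay within the low-fat range and high-fat 1 far above all others. Mmp2, a matrix metalloproteinase, differed by 0.69 (SE 0.23), with high-fat 2 (5.61) only just above low-fat 3 (5.6). Lrat, which stores retinol in resting stellate cells, had 7.66, 7.50 and 7.58 against 8.18, 7.79 and 7.99, a smaller difference of 0.41 (SE 0.17) without overlap.

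Kupffer cell and macrophage markers had the same sign in 21 of 21, with a median of 0.38 that was 0.08 without high-fat 1, 0.24 without low-fat 2, 0.26 without high-fat 2 and 0.64 without high-fat 3. The list mean was 6.20, 6.19 and 6.65 on low fat and 7.21, 6.78 and 6.14 on high fat, so high-fat 3 was the lowest of the 6. The diets did not overlap in 2 of the 21, Ccl2 and Trem2, both higher on high fat. Over all genes 5.07% lay wholly above. Ccl2, the monocyte attractant, had 4.85, 4.70 and 4.67 against 5.60, 5.45 and 5.59 (0.81, SE 0.22), and Trem2, of lipid-laden macrophages, had 5.12, 5.06 and 4.96 against 5.69, 5.56 and 5.38 (0.50, SE 0.13). Clec4f, a defining marker of resident Kupffer cells chosen here after its values were seen, had 8.30, 8.34 and 8.78 against 8.62, 8.92 and 7.98, a difference of 0.03 (SE 0.20).

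Endothelial markers had a median of 0.19 over 16 genes (0.08 without low-fat 2 and 0.29 without high-fat 3). Lymphocyte markers had 0.24 over 16 genes (0.12 without high-fat 1 and 0.14 without low-fat 1). Cholangiocyte markers had 0.29 over 9 genes (0.03 without high-fat 1), and adipocyte markers 0.27 over 10 (0.14 without high-fat 1, 0.43 without high-fat 2 and 0.44 without high-fat 3). Neutrophil markers had a median of 0.01 over 13 genes. Hepatocyte markers had a median of −0.04 over 9. Lymphocyte and neutrophil markers were dim, with 13 of 16 and 13 of 13 below a mean of 6. Whether these cell markers bear on the acute phase or cholesterol differences was not tested.

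The animals within a diet were then compared, a description chosen after the data were seen. High-fat 1 had 53 genes more than 1 unit above all 5 other control arrays, and the other arrays had 1 to 6 such genes. Cidea, a lipid droplet fusion protein known to appear in fatty liver, was 7.89 in high-fat 1 and between 4.07 and 4.38 in the other 5 livers. Cidec, its relative, was 9.07 in high-fat 1 and between 6.74 and 7.34 elsewhere. Gpnmb and Mmp12, both known from lipid-laden or activated macrophages, were 6.96 and 7.19 there, with the next highest arrays at 4.84 and 5.54. High-fat 2 stood out in Derl3, of endoplasmic reticulum protein degradation (8.70, next 6.93), and in Il1r1, the interleukin 1 receptor (10.03, next 8.78).

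Low-fat 1 had 8 genes more than 1 unit below the other 5, low-fat 2 had 5 and the remaining arrays 0 to 2. The 8 included Lcn2, Orm2, Orm3 and Saa2 as given above. Cxcl9, an interferon-induced chemokine, was 6.49 in low-fat 1 and between 8.21 and 8.56 elsewhere, and Hamp2 (hepcidin 2) was 6.20 there and between 7.70 and 8.22 elsewhere. The cholesterol genes contrasted with this, since the mean of their list was 7.14 to 7.22 in the low-fat livers and 7.87 to 7.96 in the high-fat livers. Scan dates and other batches are not given in the labels, and their part in these differences was not tested.

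**Figure D4:**
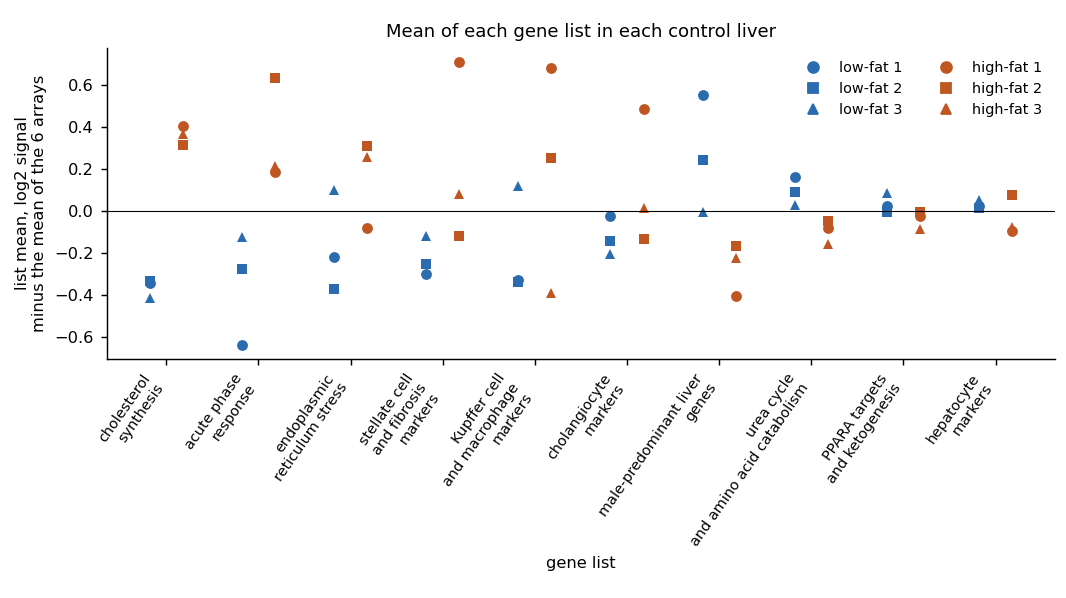
Mean log2 signal of each gene list in each control liver minus the mean of the 6 livers (y axis, log2 units), with low-fat livers in blue, high-fat livers in orange and marker shapes for the replicate number. Cholesterol synthesis has 2 tight groups apart, high-fat 1 lies highest for stellate, Kupffer and cholangiocyte markers, high-fat 2 highest and low-fat 1 lowest for the acute phase list, and low-fat 1 highest for male-predominant genes.

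The same diets were compared among the mice given PFOS and among those given PFNA, on arrays that are not shared with the controls. In the fit with array weights, low-fat PFOS replicate 3 (0.5746) and high-fat PFNA replicate 3 (0.6261) had the lowest weights of the 18 arrays. Each belongs to a group of 3 arrays. How far these arrays shape the values under a compound, here and below, was not tested. Neither diet comparison had a call over 34472 probes in limma, with 7.73% at an unadjusted p under 0.05 for PFOS and 4.18% for PFNA. The difference between the diet effect in controls and that under a compound, tested as an interaction, had 0 calls for either compound, with 6.36% and 5.18% at an unadjusted p under 0.05. Across 22180 genes, which are not independent replicates, the diet difference in controls correlated with that under PFOS at 0.07 and with that under PFNA at 0.02.

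Cholesterol synthesis kept its sign under PFOS, with a list median of 0.56, and was near level under PFNA at 0.14, though 0 of 16 members were free of overlap under either compound. Sqle differed by 1.02 (95% interval 0.21 to 1.83) under PFOS and 0.17 (−0.64 to 0.98) under PFNA, beside 1.91 (1.10 to 2.72) without a compound. Cyp51 differed by 1.30 under PFOS and 0.06 under PFNA, and Fdps by 1.56 and 0.29. The interaction of Sqle had an adjusted p of 0.817 for PFOS and 0.942 for PFNA, and neither passed the threshold.

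The acute phase list was near level, with a median of −0.09 under PFOS and 0.02 under PFNA, and its members differed among themselves. Apcs was positive under PFOS at 0.83 (0.18 to 1.48) and differed by 0.15 (−0.49 to 0.80) under PFNA. Saa2 differed by −0.19 (−1.95 to 1.58) and 0.99 (−0.78 to 2.75). Steap4 differed by −0.58 (−1.09 to −0.07) under PFOS and −0.34 (−0.85 to 0.17) under PFNA, beside 1.12 (0.61 to 1.63) in controls, and its interaction had an adjusted p of 0.524 for PFOS and 0.938 for PFNA. Lcn2 differed by −0.50 and 0.26. Stellate and Kupffer markers were also without the positive shift, with medians of −0.07 and −0.24 under PFOS and −0.03 and −0.40 under PFNA. Male-predominant genes were lower again as a list, with medians of −0.50 and −0.21, although Cyp4a12b differed by −0.01 and −0.09.

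Of the 12 genes most above the low-fat livers in the controls, 7 had the same sign under PFOS and 9 under PFNA, with medians of 0.43 and 0.18. Of the 12 most below, 8 and 7 had the same sign, with medians of −0.09 and −0.05. Igfbp2 differed by −0.11 (−0.76 to 0.54) under PFOS and 0.20 (−0.45 to 0.85) under PFNA. Cyp2b9 differed by 0.30 (−0.57 to 1.18) and 0.52 (−0.35 to 1.40). The intervals of both compounds thus lay apart from the control interval of 1.73 to 3.48 for Cyp2b9, and the adjusted interaction p was 0.664 and 0.942. 5730420D15Rik differed by −0.40 under PFOS and 0.02 under PFNA. The 24 genes were picked for their difference in the controls.

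**Figure D5:**
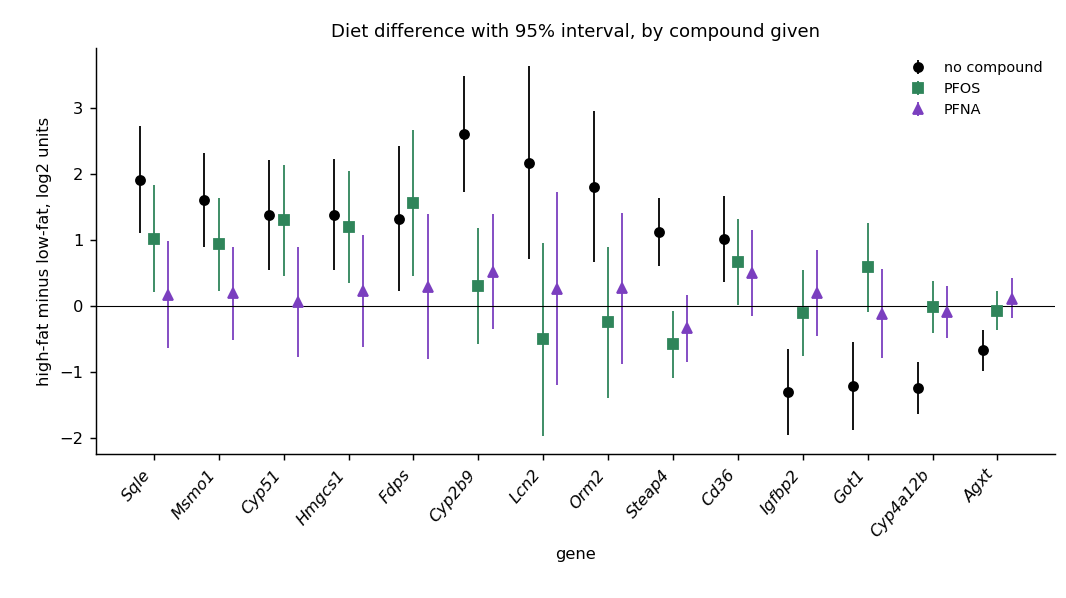
High-fat minus low-fat difference in log2 units (y axis) of 14 genes (x axis) without a compound (black circles), with PFOS (green squares) and with PFNA (purple triangles), each from 3 arrays against 3, with bars for the 95% interval of the fit. Sqle, Msmo1, Cyp51, Hmgcs1 and Fdps are positive with intervals above 0 in the controls and under PFOS, whereas Igfbp2, Cyp4a12b and Agxt have intervals below 0 in the controls and across 0 under both compounds.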

How the data were processed

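Per the labels' protocols, Trizol was used to isolate total liver RNA, which then received a biotin label. The authors deposited 1 log2 value per probe and array, and the submitters' processing notes name Transcriptome Analysis Console. Which background correction, normalization, array design and genome build were used was not stated in these sources. The log2 scale was read from the values, and every difference rests on it. Of 34472 probes, 23521 have 1 gene symbol, 1814 several and 9137 none. The 23521 cover 22180 genes, and the brightest probe stands for a gene. Fits used limma 3.58.1 under R 4.3.3, with 1 mean per group over 18 arrays with 12 residual and 5.21 prior degrees of freedom. P-values were adjusted by Benjamini and Hochberg over all probes and called under 0.05. On simulated data of this size the fit called 83% of changes of 1 log2 unit and 99.8% of changes of 2. That simulation put changes on random probes and drew noise independently for each probe at its own fitted spread. Variation that the genes of an animal share was not simulated. The shares therefore cannot tell how many real differences of these sizes went uncalled.

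The members and the 36 gene lists (642 genes, 571 measured) were chosen with earlier results of these data known, so lists carry no test. Of the 31 list genes with several probes, 10 had probes of opposite sign. Genes named are the called probe, the 12 largest positive and 12 largest negative differences at an unadjusted p under 0.01 with a mean of at least 6 in the higher group (without small RNAs, antigen receptor segments and gene models lacking a name), and list members in order of p. All 16 cholesterol genes are given. Fitm1 and Plin4, and Ccl2 and Trem2, stand in another order than their p. Genes of reversed direction under a compound (such as Gbp3 and Stab1) were taken from the first 6 of their lists, and those named for single animals were chosen after their values were seen. RefSeq (GRCm38.p6) gave promoter letters. The arrays' number limits the precision. The labels call the replicates biological. Alternatives were other normalizations, a filter on dim probes, other variance settings, the replicate number as a block, the controls alone and each control array left out in turn.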

Additional observations from a re-analysis of the deposited data

Results flagged for a closer look

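In 8 genes the 3 high-fat livers lay wholly on one side of the 3 low-fat livers in the controls and wholly on the other side in mice given a compound. Under PFNA these were Cgref1, with a diet difference of −1.05 in controls and 0.74 under PFNA, Cxcl10 (0.97 and −0.37), Fads2 (−0.38 and 0.24), Gbp3 (0.43 and −0.62), Chac1 (0.32 and −0.27) and C1s1 (0.27 and −0.16, where a dimmer probe of the gene differed by −0.21 in controls). Under PFOS these were Gsta4 (0.51 and −0.40) and Stab1 (0.34 and −0.09). Of the first 6, the difference under PFOS was 0.73, −0.45, 0.29, −0.64, −0.02 and −0.19, opposite to the controls in each. Tested as an interaction in limma over all probes, none of the 8 passed adjustment, with adjusted p between 0.664 and 0.943. The 8 are 3.46% of the 231 genes examined, and over all 22180 genes 217 (0.978%) were apart in opposite directions under either compound. Many of the 231 were examined for a small p in the controls, so these shares are not directly comparable.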

How the results depend on the processing

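The number of calls in the controls was 1 of 34472 probes. It was 8 in the fit to the 6 control arrays alone, where the other groups' spread plays no part, 2 after quantile normalization, 2 with only probes above the median of probe means, 2 with an intensity trend and robust prior, and 0 without the 2 exposed arrays that stood apart, where 5730420D15Rik had an adjusted p of 0.0566. It was 1 with centring or array weights. Cyp4a12b joined under the 3 settings with 2 calls. With the replicate number as a block (replicate block) there were 3 calls, with Cyp4a12b and Cyp2b9 added. Same-numbered arrays did not deviate together, with correlations of 0.0078, 0.0070 and −0.0115, so the numbers were not taken as pairs, and not every array correlated best with its own number. Leaving out 1 control array gave 0 to 3 calls, with 0 without low-fat 1, low-fat 2 or high-fat 3, 2 without high-fat 1 or high-fat 2, and 3 without low-fat 3. Probes at an unadjusted p under 0.05 numbered 2222, 1257 with only the brighter probes, from fewer probes tested, and 1799 to 2766 with 1 control array left out. Beyond the stated construction of a setting, the cause was not tested.

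Of 107 genes followed, 6 changed sign, all uncalled and none among the 24 with the largest differences. Ebp was 0.01 with centring, 0.01 with array weights and −0.15 to 0.14 with 1 control array left out. Over the same omissions Mvd ranged from −0.04 to 0.24, Cidec from −0.29 to 0.87, Gpnmb from −0.27 to 1.19, Derl3 from −0.05 to 1.48 and Clec4f from −0.17 to 0.30. Of 36 list medians, 13 moved by more than the spread between animals under at least 1 of the 15 alternatives. With 3 arrays a group and no stated scan dates, small differences and batches could not be resolved.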

Other observations

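Interferon-stimulated genes were not described above. Of 18 measured, 3 were higher and 0 lower at an unadjusted p under 0.05, and the median difference was 0.09. Over all genes 3.37% were higher and 3.16% lower at that p, which also serves for the lists below. Cxcl10, a chemokine that draws T cells, had signals of 4.85, 5.30 and 5.59 on low fat and 5.83, 6.51 and 6.31 on high fat, without overlap (difference 0.97, SE 0.27, adjusted p = 0.573). Low-fat 3 held the highest value of 8 of the 18 genes and low-fat 1 the lowest of 10. Immediate-early genes, which respond within minutes to stimuli that include handling and killing, had 5 of 20 higher at an unadjusted p under 0.05, with a median of 0.14. Btg2, an anti-proliferative member, had 5.70, 5.50 and 6.03 against 6.44, 6.41 and 6.42 (0.68, SE 0.18, adjusted p = 0.521). Of 17 clock genes, 1 was at an unadjusted p under 0.05, which was Cry1, a repressor of the clock, at −0.72 (SE 0.22), and the median was 0.01. Of 27 respiratory chain subunits, 0 were at an unadjusted p under 0.05 and the median was −0.03. Of 15 pericentral genes, 4 had all high-fat livers below the low-fat livers and 1 had them above, against 5.76% and 5.07% of all genes. Cyp1a2, a xenobiotic P450, was among the 4 below, at −0.41 (SE 0.24). The list median was 0.09, and 0 of the 15 were at an unadjusted p under 0.05. Exocrine pancreas markers (7 measured, median 0.01) and erythroid markers (2 measured, median −0.02), which would mark other tissue or blood, all had mean signals under 6. The interferon count of 3 was 1 without low-fat 2, high-fat 1 or high-fat 2, and the immediate-early count of 5 was 3 without low-fat 1 or high-fat 1.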
